A study of Homo sapiens with 4 samples.

Results

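The genes described here encode the laminins, nidogens and heparan sulfate proteoglycans of the basement membrane: LAMA3, LAMA5, LAMB1, LAMB3, LAMC1, NID1, NID2, HSPG2 and AGRN. They were chosen by symbol, and 17 probe sets of the array carry one of the symbols in the annotation table, of which 16 name no other gene. These 16 represent 8 of the 9 genes. LAMA3 has no probe set in that table and was not analysed here. All 8 genes were among the 12521 expressed genes, out of 19775 on the array, where expressed means that the brightest probe set of the gene had a mean signal over the arrays of at least 66.3, the median of all probe sets. RNA came from A549 cells, a human lung adenocarcinoma line, on 4 Affymetrix Human Genome U133 Plus 2.0 arrays with 1 array per condition. The cells had received a non-targeting control siRNA or an siRNA against β-arrestin-1 (ARRB1, a scaffold protein that damps signals from G-protein-coupled receptors), and all were serum starved for 36 h. One array of each siRNA was left untreated (serum starved), and the other had nicotine at 1 µM for 24 h. The study asked which genes nicotine regulates through β-arrestin-1. There are no replicates, so a difference between 2 arrays has no replicate check, and 1 cell line and 1 array per condition limit what the arrays can show.

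A basement membrane is the thin sheet of matrix on which epithelial cells rest. Laminins, each a trimer of an α, a β and a γ chain, assemble into one network and type IV collagen into another, and the nidogens bind the laminin γ1 chain and type IV collagen and so link the networks. Perlecan (HSPG2) and agrin (AGRN) carry heparan sulfate chains that bind growth factors. The airway and alveolar epithelium of the lung lies on such a membrane, and carcinoma cells that invade have to cross it.

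The values are MAS5 signals on a linear scale, and the arrays had medians of 68.6 to 73.3. The targeted gene had a lower signal with ARRB1 siRNA: its brightest probe set had 352 in control siRNA serum starved, 331 in control siRNA nicotine, 191 in ARRB1 siRNA serum starved and 224 in ARRB1 siRNA nicotine cells. Of its 5 expressed probe sets 4 were lower with ARRB1 siRNA in both pairs, 222756_s_at by only 0.23 on the log2 scale in the nicotine treated pair, and 221861_at was not lower, at log2 differences of 0.05 and 0.11. Of 7 epithelial markers 6 were expressed, KRT8, KRT18 and EPCAM among them, while CLDN4 was below the limit, and of the 16 fibroblast, endothelial and leukocyte markers only COL1A1, DCN, PECAM1 and CD79A were. The 3' to 5' signal ratio of the ACTB control probe sets was 1.31 and 1.29 with control siRNA and 1.38 and 1.37 with ARRB1 siRNA, and that of GAPDH was 0.885 to 0.940. The ACTB ratio thus moved with the siRNA, and its part in the differences below was not tested. Signals of different probe sets are not set against each other here, because each probe set binds with its own strength.

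The largest differences within the group were those of the nidogens, and they ran in opposite directions. NID1, nidogen-1, had a lower signal with ARRB1 siRNA and NID2, nidogen-2, a higher one, in the serum starved cells and again in the nicotine treated cells. The laminin chains, perlecan and agrin differed by at most 1.41-fold on their brightest probe sets in any of the 4 comparisons. The 250 bases before the transcription start of the 2 nidogen genes are shown because these genes carry the difference. Both lie on the minus strand of GRCh38.p14, NID1 at chr1:236065091-236065340 and NID2 at chr14:52069060-52069309, and both sequences are from RefSeq. Capitals mark GC boxes (GGGCGG or its reverse complement CCGCCC).
NID1: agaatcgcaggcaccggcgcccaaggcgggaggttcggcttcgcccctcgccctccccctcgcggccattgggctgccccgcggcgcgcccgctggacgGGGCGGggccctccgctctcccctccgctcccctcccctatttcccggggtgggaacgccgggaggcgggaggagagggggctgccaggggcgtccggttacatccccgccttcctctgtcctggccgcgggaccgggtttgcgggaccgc
NID2: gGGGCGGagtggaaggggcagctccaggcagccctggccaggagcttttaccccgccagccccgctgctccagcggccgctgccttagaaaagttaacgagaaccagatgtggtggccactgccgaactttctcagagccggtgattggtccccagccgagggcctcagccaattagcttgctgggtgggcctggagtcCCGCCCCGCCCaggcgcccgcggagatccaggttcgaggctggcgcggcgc
The NID1 window holds 1 GC box and 30 CpG dinucleotides with 76.4% G and C, and the NID2 window holds 3 GC boxes, a pair of which overlap, and 18 CpG dinucleotides with 68.0% G and C. The median over 35116 promoters of the same length was 58.0%. A GC box occurs in 42.6% of those promoters. Neither window holds, on either strand, the E2F letters TTTCCCGC, TTTGGCGC, TTTCGCGC or TTTGCCGC (2.79% of promoters hold at least one of them), the AP-1 letters TGANTCA (6.57%), the CRE letters TGACGTCA (1.65%) or the TATA box letters TATAAA (10.7%). These letters were not found in these windows, which says nothing of binding elsewhere.

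NID2 was measured by 1 probe set, 204114_at. Its signals were 693 in control siRNA serum starved, 599.9 in control siRNA nicotine, 1183 in ARRB1 siRNA serum starved and 1373 in ARRB1 siRNA nicotine cells. Both ARRB1 siRNA arrays were above both control siRNA arrays. The share of all expressed genes that separate in this way is not given, so such separation, here and below, is only a description. The difference was 1.71-fold in the serum starved pair and 2.29-fold in the nicotine treated pair, or 0.77 and 1.19 on the log2 scale. Over the 500 probe sets nearest in signal, the SD of the log2 difference was 0.31 and 0.33 in the same pairs of arrays.

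NID1 was measured by 3 probe sets. The brightest, 202007_at, had signals of 177 in control siRNA serum starved, 152 in control siRNA nicotine, 70.7 in ARRB1 siRNA serum starved and 74.7 in ARRB1 siRNA nicotine cells. Both ARRB1 siRNA arrays were below both control siRNA arrays, by 2.50-fold in the serum starved and 2.04-fold in the nicotine treated pair. The log2 differences were -1.32 and -1.03, against an SD of 0.55 and 0.57 for probe sets of like signal. The signals with ARRB1 siRNA lay close to the medians of their arrays, 72.4 and 69.0, so the difference rests on dim values. The second probe set, 202008_s_at, had 76.3 and 108 with control siRNA and 48.8 and 64.9 with ARRB1 siRNA, serum starved first. It was lower by 0.64 and 0.74 on the log2 scale, against an SD of 0.59 and 0.65. This probe set was at or above the array median on only 2 of the 4 arrays. The third, 1561082_at, had signals of 4.01 to 17.8, far below the medians of the arrays, and its sign differed between the pairs.

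**Figure D1:**
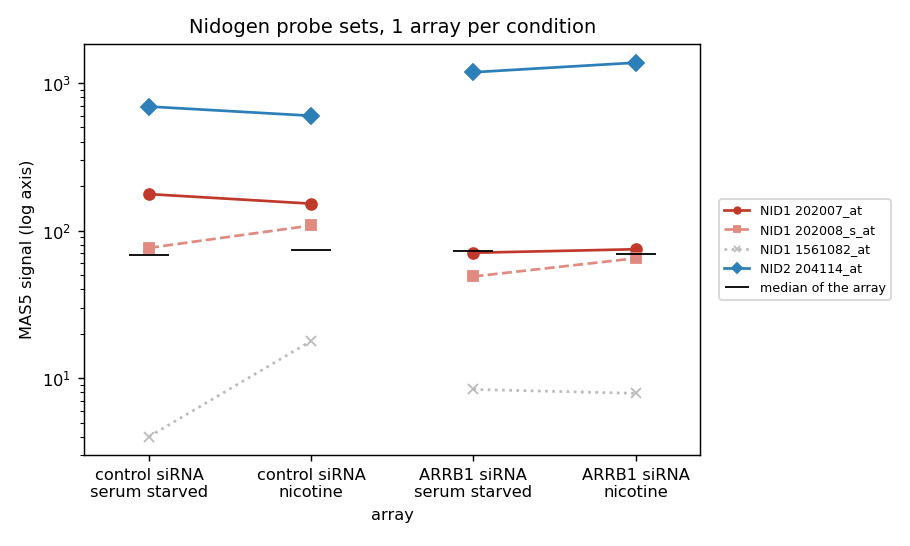
Signals (log axis) of the 3 NID1 probe sets and the 1 NID2 probe set on the 4 arrays, with lines joining the serum starved and nicotine arrays of the same siRNA and black bars at the median of each array. NID2 lies at 599.9 and 693 with control siRNA and at 1183 and 1373 with ARRB1 siRNA, while the brightest NID1 probe set lies at 152 and 177 and at 70.7 and 74.7.

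The pair of ARRB1 siRNA comparisons shares no array. Of the 8 genes, NID1 was at least 2-fold lower in the serum starved pair, where 0.783% of the expressed genes were, and none was at least 2-fold higher, against 1.01%. In the nicotine treated pair NID1 was at least 2-fold lower, against 1.4% of the expressed genes, and NID2 at least 2-fold higher, against 0.879%. NID1 was thus at least 2-fold lower in both pairs, as were 0.327% of the expressed genes, and NID2 was at least 1.5-fold higher in both, as were 1.01%. With each array centred on its median or quantile normalized, NID1 in the nicotine treated pair moved from -1.03 to -0.94 with either, under the 2-fold limit. The median log2 difference of the 8 genes was -0.11 in the serum starved and 0.06 in the nicotine treated pair, beside 0.02 in each for all expressed genes.

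A limma fit over all expressed genes, with siRNA and nicotine as additive terms, sets the 2 ARRB1 siRNA arrays against the 2 control siRNA arrays and leaves 1 residual degree of freedom. It takes any interaction of siRNA and nicotine as error. By this fit NID2 rose with ARRB1 siRNA by 0.98 on the log2 scale (SE 0.13, limma adjusted p = 0.000386) and NID1 fell by 1.17 (SE 0.31, limma adjusted p = 0.0284). These were 2 of the 8 genes, while 7.45% of the expressed genes had an adjusted p under 0.05. The 8 genes were chosen with earlier results of these data known, so setting them beside that share is a description. The calls rest on the moderation of the variance. With limma's plain moderation, without trend and robust settings, the adjusted p of NID1 was 0.185 and that of NID2 0.193, and none of the 12521 genes passed, although 1933 had an unadjusted p under 0.05. With the median over its probe sets in place of the brightest, NID1 had a log2 difference of -0.69 and an adjusted p of 0.314. For the other 6 genes the adjusted p was 0.296 to 0.881.

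**Figure D2:**
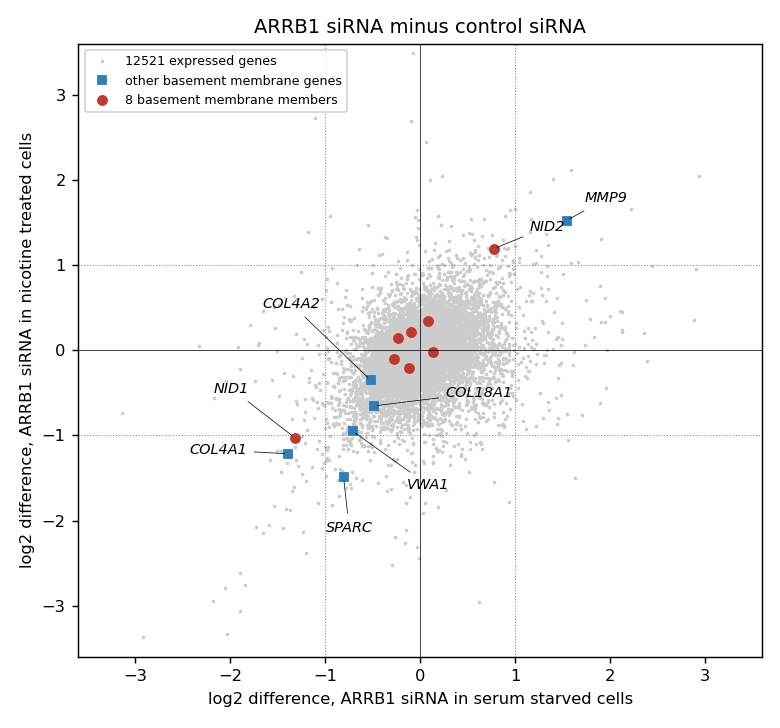
Log2 differences of ARRB1 siRNA minus control siRNA for 12521 expressed genes (grey), in serum starved cells (horizontal) and nicotine treated cells (vertical), with the 8 basement membrane genes in red, 6 other named genes in blue and the 2-fold limits dotted. NID1 lies at -1.32 and -1.03 beside COL4A1, NID2 lies at 0.77 and 1.19, and the other 6 red points lie near the origin, while 3 of the grey genes lie outside the axes.

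LAMA5, LAMB1 and LAMC1 encode the α5, β1 and γ1 chains, which together form the main laminin of epithelial basement membranes. LAMA5, by 210150_s_at, had signals of 4334 in control siRNA serum starved, 4120 in control siRNA nicotine, 4053 in ARRB1 siRNA serum starved and 4793 in ARRB1 siRNA nicotine cells. The control and ARRB1 siRNA arrays overlapped. A second probe set, 229570_at, had 162, 55.6, 121 and 189 in the same order, but it also names LAMA5-AS1, the antisense transcript, so its source cannot be told apart.

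LAMB1, by 201505_at, had signals of 7338 and 6793 with control siRNA and 6762 and 5862 with ARRB1 siRNA, serum starved first. Both ARRB1 siRNA signals were below both control siRNA signals. The log2 differences were -0.12 and -0.21, smaller than the SD of 0.21 and 0.23 at this signal, and the second probe set, 211651_s_at, was lower by 0.11 and 0.17. LAMC1, the chain that nidogen binds, had 3801 and 4509 with control siRNA and 4172 and 4440 with ARRB1 siRNA on 200771_at, so the ARRB1 siRNA signals lay between the control siRNA signals. Its second probe set, 200770_s_at, had 1150 and 1147 with control siRNA and 1309 and 1158 with ARRB1 siRNA, so there both ARRB1 siRNA signals were the higher ones, by 0.19 and 0.01 on the log2 scale.

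LAMB3 encodes the β3 chain, which is part of the laminin that anchors epithelial cells at hemidesmosomes. LAMB3 had signals of 945 and 895 with control siRNA and 1001 and 1132 with ARRB1 siRNA, serum starved first. Both ARRB1 siRNA signals were above both control siRNA signals, by 0.08 and 0.34 on the log2 scale, with an SD of 0.29 and 0.30 at this signal.

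Perlecan, HSPG2, had signals of 999 and 1082 with control siRNA and 848 and 1193 with ARRB1 siRNA on 201655_s_at, serum starved first, so the groups overlapped. Its nicotine difference in ARRB1 siRNA cells, 0.49 on the log2 scale, was the largest in any comparison among the brightest probe sets of the laminins and proteoglycans and exceeded the SD of 0.24 at this signal. The dimmer probe set 201654_s_at had 47.0 and 84.8 in the same ARRB1 siRNA arrays, a log2 difference of 0.85 with an SD of 0.71.
Agrin, AGRN, had 3253 and 2973 with control siRNA and 2693 and 2777 with ARRB1 siRNA on 212285_s_at. The ARRB1 siRNA signals were the lower ones, by 0.27 and 0.10 on the log2 scale, against an SD of 0.24 and 0.29. A second bright probe set, 217419_x_at, had 2497 and 1897 with control siRNA and 2136 and 1808 with ARRB1 siRNA, so its groups overlapped. The other 2 AGRN probe sets are dimmer, and 212283_at, with 77.1 and 23.4 in the control siRNA pair and 89.2 and 43.2 in the ARRB1 siRNA pair, was more than 2-fold lower with nicotine in each, at log2 differences of -1.72 and -1.04 with an SD of 0.80 and 0.85.

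**Figure D3:**
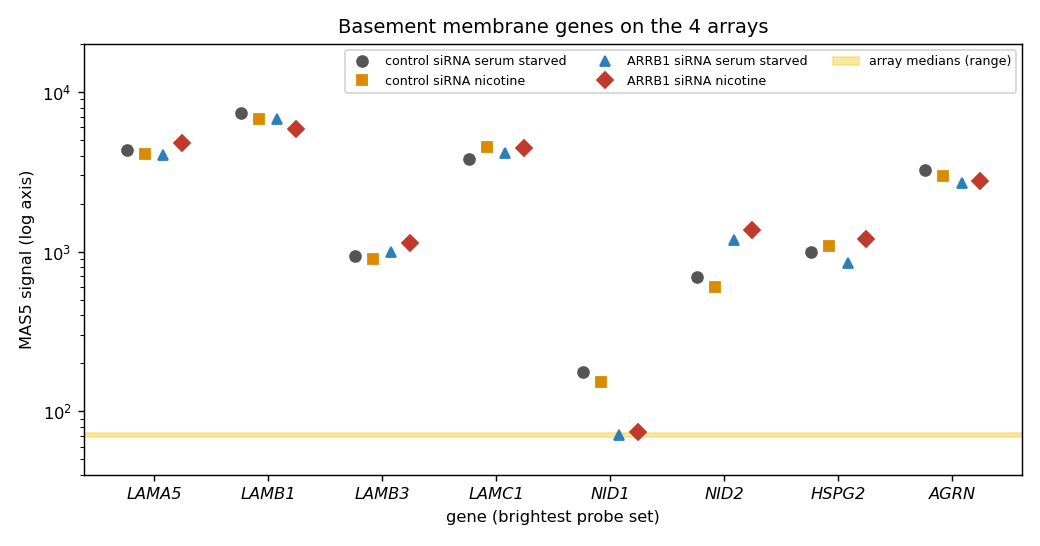
Signals (log axis) of the brightest probe set of each of the 8 genes, with 1 marker per array and a yellow band over the medians of the 4 arrays, 68.6 to 73.3. The blue and red ARRB1 siRNA markers separate clearly from the control siRNA markers for NID1 and NID2, and NID1 reaches the band.

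Nicotine, the treatment of the study, moved none of the 8 genes by 1.5-fold on its brightest probe set. In control siRNA cells 4.7% of the expressed genes differed by at least 1.5-fold with nicotine, and in ARRB1 siRNA cells 6.86% did. The log2 differences of the 8 genes were -0.21 to 0.25 in control siRNA cells, with LAMC1 highest on its brightest probe set (its second probe set had signals of 1150 and 1147 in that pair), and -0.21 to 0.49 in ARRB1 siRNA cells, with HSPG2 highest. Their medians were -0.10 and 0.13, beside -0.02 and -0.01 for all expressed genes. All 4 AGRN probe sets were lower with nicotine in control siRNA cells, but 217410_at, with 19.1 and 13.1, was far below the array medians. The brightest, 212285_s_at, was lower by 0.13 on the log2 scale (SD 0.15 at this signal). The bright 217419_x_at was lower by 0.40 in that pair (SD 0.16) and by 0.24 in ARRB1 siRNA cells (SD 0.23). The median log2 signal over the 4 AGRN probe sets differed by -1.06 in control siRNA cells. It takes in the dim 212283_at, which had 23.4 with nicotine. With nicotine, NID2 in control siRNA cells was lower by 0.21 on the log2 scale and, in ARRB1 siRNA cells, higher by 0.22, against an SD of 0.20 and 0.29. Whether these nicotine differences differ between the siRNAs could not be tested with 1 array per condition. For nicotine, the limma fit gave none of the 8 genes an adjusted p under 0.05, and it called 11 of all 12521 genes (0.0879%). At an unadjusted limma p under 0.05 were 1 of the 8, HSPG2 (0.0300, adjusted p = 0.464), and 1136 of all 12521 genes.

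**Figure D4:**
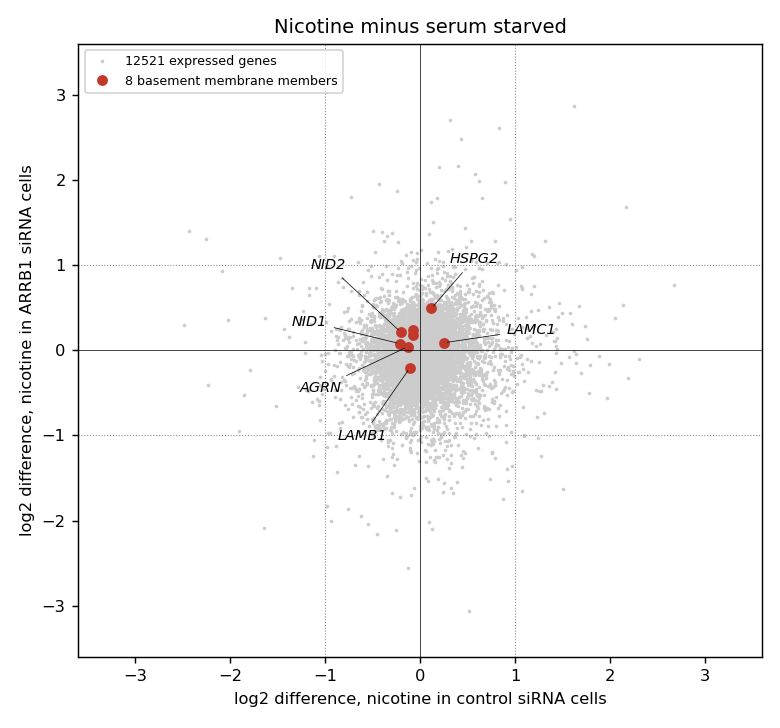
Log2 differences of nicotine minus serum starved for 12521 expressed genes (grey), in control siRNA cells (horizontal) and ARRB1 siRNA cells (vertical), with the 8 basement membrane genes in red and the 2-fold limits dotted. All 8 red points lie within -0.21 to 0.25 on the horizontal and -0.21 to 0.49 on the vertical axis.

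The partners of these genes were described from 6 lists of 69 genes (other laminin chains, basement membrane collagens, receptors, associated proteins, processing enzymes and heparan sulfate synthesis), of which 46 were expressed. By the limma fit, 3 of the 46 rose and 7 fell with ARRB1 siRNA, together 21.7%, beside 7.45% of all expressed genes. With limma's plain moderation none of these calls remained, since no gene passed. The lists were chosen with earlier results of these data known, so the 2 shares are a description and not a test. The share also varied with the filter. A separate limma fit of only the 8157 genes from the 75th percentile of signal on called 909 of them. It has its own moderation and adjustment, so signal and refit cannot be told apart.
Among 8 expressed basement membrane collagens, the fit called 3 lower and none higher. The list as a whole lay near no difference, with median log2 differences of -0.036 in the serum starved and -0.056 in the nicotine treated pair. COL4A1, the α1 chain of type IV collagen, had 2246 and 2022 with control siRNA and 857 and 871 with ARRB1 siRNA, serum starved first, 2.62-fold and 2.32-fold lower (limma adjusted p = 5.47e-06). Its second probe set was lower by 0.47 and 0.55 on the log2 scale. COL4A2, which encodes the α2 chain that pairs with it, fell by 0.44 in the limma fit (adjusted p = 0.0144), and COL18A1, the source of endostatin, fell by 0.57 (adjusted p = 0.00472).

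Among 8 expressed associated proteins 2 fell. SPARC, a matricellular protein that binds type IV collagen, had 483 and 646 with control siRNA and 276 and 229 with ARRB1 siRNA (limma adjusted p = 0.00210), and its second probe set was lower by 0.60 and 0.61 on the log2 scale. VWA1, a perlecan-binding matrix protein, had 266 and 242 with control siRNA and 162 and 126 with ARRB1 siRNA (limma adjusted p = 0.0326), but its second expressed probe set was higher with ARRB1 siRNA, by 0.51 and 0.12. Of 8 expressed processing enzymes 1 rose: MMP9, a protease that cleaves type IV collagen, had 134 and 151 with control siRNA and 390 and 436 with ARRB1 siRNA on its only probe set (limma adjusted p = 0.000168).

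Of 8 expressed receptors, ITGB1, the β1 integrin chain, and SDC4, a syndecan, rose by 0.27 and 0.37 on the log2 scale, and SDC1, another syndecan, fell by 0.41 (limma adjusted p of 0.0387, 0.0437 and 0.0232). Of 4 expressed ITGB1 probe sets, 2 were higher with ARRB1 siRNA in both pairs. The other two were not, 1553530_a_at with log2 differences of -0.01 and 0.01 and 216178_x_at with 0.09 and -0.44. Of 13 expressed genes of heparan sulfate synthesis 1 fell, HS2ST1, a sulfotransferase, by 0.50 (limma adjusted p = 0.0144). The 1 other laminin chain expressed, LAMB2, had 900.0 and 1030.3 with control siRNA and 843 and 855 with ARRB1 siRNA (limma adjusted p = 0.438). LAMA1, LAMA2, LAMA4, LAMB4 and LAMC3 were below the limit for expression.

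**Figure D5:**
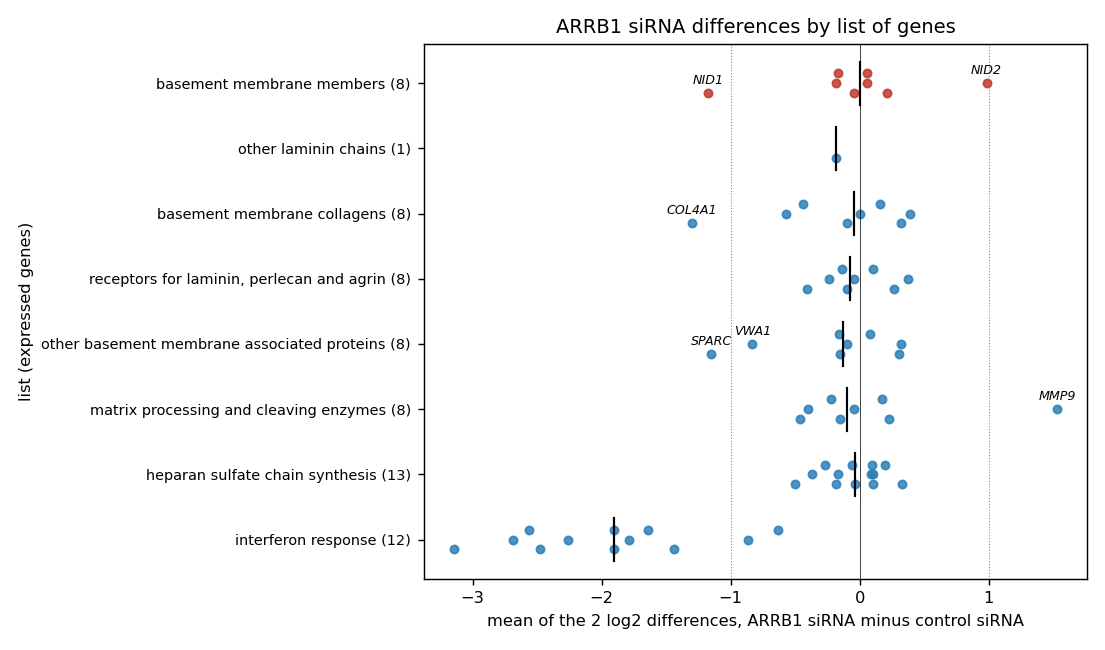
Mean of the log2 differences with ARRB1 siRNA in serum starved and nicotine treated cells, for each expressed gene of the 8 lists named at left with their number of genes, with black bars at the list medians and the 2-fold limits dotted. NID1 and NID2 lie at -1.17 and 0.98, most genes of the 6 lists of partners lie within the limits, and the interferon list lies to the left.

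Among all 12521 expressed genes, those nearest to NID1 in pattern over the 4 arrays were AUH, an RNA-binding enzyme of leucine breakdown, COL4A1 and STAG3L3, with Euclidean distances of 0.068, 0.14 and 0.17 between log2 signals centred per gene. Over 4 arrays, which the genes share, this is a description.
Genes of the interferon response moved with the siRNA as well. Of 12 expressed genes in that list the limma fit called 11 lower with ARRB1 siRNA. The other, IFIT1, was lower by 2.69 on the log2 scale but was not called (SE 0.50, limma adjusted p = 0.218). The list medians were -1.69 in the serum starved and -2.26 in the nicotine treated pair. The summed signal of the list was 36103 and 41180 with control siRNA and 13446 and 9888 with ARRB1 siRNA. CDH1, the epithelial cadherin, fell by 0.74 (limma adjusted p = 0.000168), while KRT18, a keratin, rose by 0.27 (limma adjusted p = 0.0398). ELF3, an epithelial transcription factor, rose by 0.54 on its brightest probe set (limma adjusted p = 0.00602). Its other expressed probe sets did not rise in both pairs, 201510_at with log2 differences of -0.34 and 0.20 and 229842_at with -0.10 and -0.35. The part of these changes in the nidogen differences was not tested.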

How the data were processed

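RNA of A549 cells was hybridised to 1 Affymetrix array per condition. By the submitters' processing notes, the authors made the deposited signal intensities with MAS5 in GCOS 1.4. They are linear and scaled to 1 trimmed mean per array (500.1 on each). The log2 transformation and centring of genes that the methods describe are not in these values. MAS5 applies no floor here, so dim signals scatter widely between arrays, and no detection calls were used.

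After 62 control probe sets were left out, 54613 remained. A probe table (annotation of the platform) gave 41091 of them 1 symbol, 1801 several and 11721 none. The brightest probe set, by mean log2 signal over the arrays, stood for a gene. Log2 differences were computed in Python 3.11.15 with numpy 2.4.6 and pandas 2.3.3 and drawn with matplotlib 3.10.9. The 2-fold limit is that of the submitters' notes. The spread at a given signal is the SD over the 500 probe sets nearest in mean log2 signal, and it includes any true differences. The additive fit used limma 3.58.1 in R 4.3.3 with trend and robust settings and Benjamini-Hochberg adjustment over 12521 genes. The additive fit and the 2-fold count of the serum starved pair were also run on simulated arrays. These held normal noise and no interaction of siRNA and nicotine, so they cannot show how the fit behaves where one exists. Of the partner genes, up to 4 per list with the largest mean ARRB1 siRNA difference could be named, along with the members, ARRB1 and the 3 genes nearest in pattern to the member that differed most. KRT8, EPCAM, CLDN4 and the laminin chains below the limit were named after their values were seen, outside that rule. The members and lists were chosen with earlier results of these data known. Alternatives were other normalizations, floors, fold limits, probe sets, filters and moderation.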

Additional observations from a re-analysis of the deposited data

How the results depend on the processing

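When all probe sets of a gene were summarised by their median, the number of the 8 genes at least 2-fold apart was 1 (AGRN) for nicotine in control siRNA cells, where it had been 0, 0 for ARRB1 siRNA in serum starved cells (from 1) and 1 for ARRB1 siRNA in nicotine treated cells (from 2), and the additive limma fit called 1 gene, NID2, in place of 2. This summary takes in dim probe sets, and it turned the sign of the small NID1 difference with nicotine in control siRNA cells (from -0.21 to 0.50) and of AGRN with nicotine in ARRB1 siRNA cells (0.04 to -0.64) and with ARRB1 siRNA in nicotine treated cells (-0.10 to 0.41). With genes counted as expressed only from the 75th percentile of signal on, NID1 was not counted, and the numbers for ARRB1 siRNA were 0 in serum starved cells, 1 in nicotine treated cells and 1 in the additive fit. Centring the arrays or quantile normalization gave 1, NID2, for ARRB1 siRNA in nicotine treated cells. A 1.5-fold limit gave 2 in serum starved cells, and a 3-fold limit gave 0 in both ARRB1 siRNA comparisons. The shares of all expressed genes under these alternatives are not given beside the fold counts. Those counts thus show only how the calls of the 8 genes moved. With limma's plain moderation the additive fit called 0 of the 8 genes. Its adjusted p over the alternatives was 0.0129 to 0.314 for NID1, where NID1 was counted, and 3.08e-06 to 0.193 for NID2. Over all genes it called 933, but 481 with centred arrays, 613 after quantile normalization, 552 with the median of probe sets and 0 with plain moderation. The rule of at least 2-fold in both ARRB1 siRNA pairs was added after seeing the data. NID1 met it, and 0 genes of the 8 did with centring, quantile normalization, the median of probe sets or the 75th percentile. Beyond what each alternative leaves out or raises by construction, the cause was not tested. NID1 was lower and NID2 higher with ARRB1 siRNA in both pairs under every normalization, floor and choice of probe sets tried. NID2 has 1 probe set, well above the array medians, so the floors and choices of probe sets could not change its log2 differences. Those of NID1 were likewise unchanged by the lower floor and by leaving out _x_at probe sets. Leaving out _x_at probe sets changed none of the counts of the 8 genes given above, though it moved adjusted p values slightly. The floors and omitting the filter, which were not run in the additive fit, changed none of the counts either. All 8 genes already passed the filter, so omitting it could not change them. Leaving out a replicate was not possible with 1 array per condition, and the number of arrays and the dim NID1 signals limit the precision.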
